A study of Mus musculus with 4 samples.

Results

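Gastrocnemius muscle of adrenalectomized mice was compared with gastrocnemius muscle of intact mice on oligonucleotide arrays, to describe what differs in muscle once the adrenal hormones are gone. The comparison uses 2 of the 4 arrays of the study, and its members are all probe sets that are not controls and carry a single gene symbol, which are 10833 of the 12488 probe sets on the array. They stand for 8251 genes, and 6112 of these had a signal of 100 or more on at least 1 of the 2 arrays and were compared. The other 2139 genes read below 100 on both arrays and have no ratio.

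The intact group was 10 mice whose gastrocnemius muscles were combined into 1 pool. The adrenalectomized group was another pool of 10 mice, operated on 1 week before the muscle was taken and given no injection. The remaining arrays hold muscle of adrenalectomized mice that had received 0.1 mg of cortisol into the abdominal cavity, 3 h or 24 h earlier, again as 1 pool of 10 mice each, and they are given here only as context (the 3 h array and the 24 h array). The labels name no strain, sex, age, hour of the day or diet, and they describe the intact mice without a sham operation, so the loss of the hormones and the operation itself cannot be told apart. Each group is 1 array. No spread between mice could be measured, no test was run, and every difference below is a difference between 2 pools.

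The adrenal cortex is the source of glucocorticoids (corticosterone in mice) and of the mineralocorticoid aldosterone, and the adrenal medulla is the main source of circulating adrenaline. Removing both glands therefore takes away the ligands of the glucocorticoid receptor and of the mineralocorticoid receptor, lowers the adrenaline that reaches beta-adrenergic receptors, and leads to loss of sodium and of blood volume. In muscle, glucocorticoids bind the glucocorticoid receptor, a transcription factor that is held by chaperones until the hormone binds, and the receptor then switches on genes that restrain growth, spare glucose and feed back on the hormone itself.

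Few genes of gastrocnemius muscle differed by much between the pools, 300 of 6112 (4.91%) by 1.5-fold and 44 (0.720%) by 2-fold. Fkbp5, a chaperone partner that the glucocorticoid receptor induces, was 1.70-fold lower in the muscle without adrenals, and Cebpd, another glucocorticoid-induced gene, was 1.61-fold higher. Endothelial genes leaned higher, with 16 of 20 endothelial markers above the intact level. Of these, Cd34, Cldn5, Nos3 and Sox17 were past 1.5-fold, though a second Sox17 set went down. The collagen IV chains Col4a1 and Col4a2 of the vessel and fibre basement membrane were higher too. So was Cd93, which is not on the endothelial list and is named for the size of its ratio. On a list of liver transcripts, mostly of plasma proteins, 18 of 20 were lower, some of them read on probes shared between related genes. None of the 17 fast and 13 slow fibre genes compared passed 1.5-fold on the probe set used. These are mostly bright genes, and only 0.907% of all genes with a mean signal of 3000 or more did.

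The unit is the signal of the array software, scaled so that the trimmed mean of each array is 500. Signals below 100 were raised to 100 before the ratio, so a gene that reads below 100 on 1 of the arrays has only a lower bound, written "at least". Every log2 ratio is adrenalectomized over intact, so a positive value is a higher signal after adrenalectomy, and 1 log2 unit is 2-fold. Both arrays were from 1 chip lot and looked alike in quality. On each of them 63.0% of probe sets read 100 or more, the median signals were 189 and 197, and the ratios of the 3′ to the 5′ control sets were 0.88 (intact) and 0.89 (adrenalectomized) for Gapdh, while those of actin were 1.10 and 1.07. The 4 arrays were run on different fluidics modules, 1 module per group, so module and group cannot be told apart. The tissue label was borne out by the markers of fast limb muscle, since 10 of 10 measured markers were bright on both arrays, with Myh4 (the fast myosin heavy chain of type IIB fibres) at 33475 and 34919 and Ckm (muscle creatine kinase) at 14173 and 15087. A second set of Myh4 was dim, at 244 and 76.7. In whole muscle, a lower signal from fewer cells of a type and from less RNA per cell cannot be told apart.

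Of the 44 genes past 2-fold, 21 (0.344%) were higher and 23 (0.376%) were lower after adrenalectomy. Of the 300 past 1.5-fold, 163 were higher (2.67%) and 137 lower (2.24%). The median log2 ratio of all genes was 0.01, with 52.0% of genes above 0 and 48.0% below. The balance of higher and lower genes at 1.5-fold moved with the scaling, from 54.3% higher with the trimmed mean to 39.2% when each array was scaled to its median (112 higher, 174 lower), 43.3% with scaling to ribosomal protein sets, 46.6% with quantile normalization and 45.6% with a loess correction. The median of all genes moved with it by less than 0.1, and the balance between higher and lower has no fixed side. The 91 genes named for the size of their ratio kept their direction under all 4 scalings. Shifts this small could hardly turn ratios picked for their size, so this is no support for their directions.

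**Figure D1:**
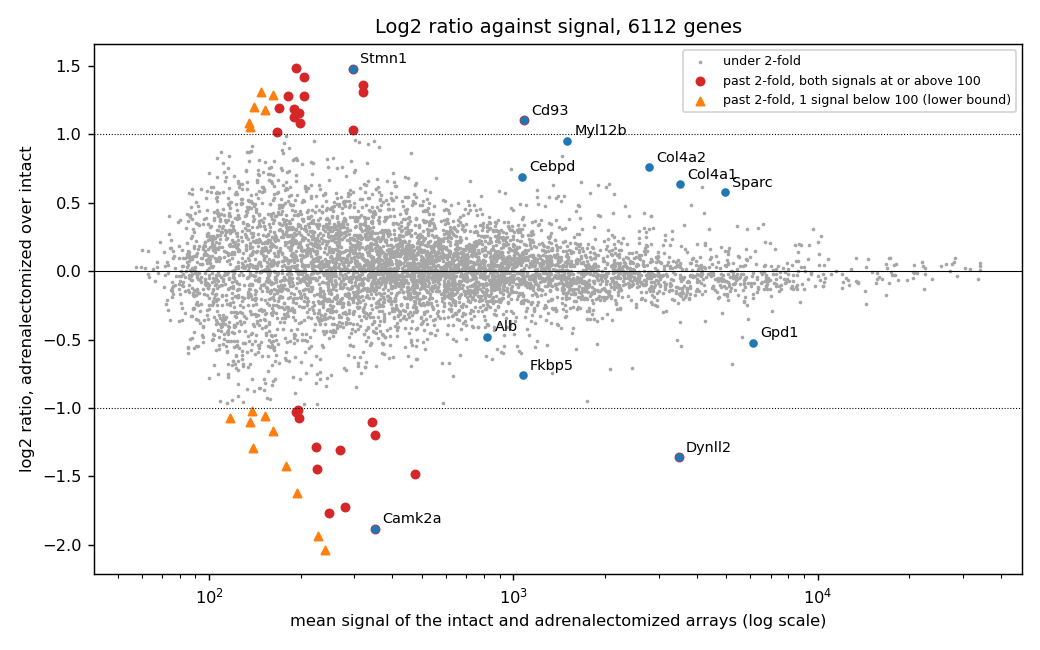
Log2 ratio of the adrenalectomized over the intact array (vertical axis) against the mean signal of both arrays (horizontal axis, log scale), 1 point per gene for 6112 genes; red circles are genes past 2-fold with both signals at or above 100, orange triangles are past 2-fold with 1 signal below 100, and blue points carry names used in the text. The cloud narrows from left to right, and of the 44 genes past 2-fold only Cd93 and Dynll2 have a mean signal of 1000 or more.

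Most of the large ratios were found at the dim end of the scale. Of the 44 genes past 2-fold, 36 had a mean signal under 300 and 16 had a bound in place of a ratio because 1 of the arrays read below 100. The share of genes past 1.5-fold was 10.1% for mean signals under 300, 2.56% between 300 and 1000, 1.67% between 1000 and 3000 and 0.907% at 3000 and over. Counts of list members past 1.5-fold, and lists with none, are to be read beside these shares. The lists were chosen with earlier results of these data known. A list's share set beside that of all genes is therefore a description and no independent support. An error within the arrays can be had from genes with more than 1 probe set. The SD of the difference between the log2 ratios of the 2 brightest sets of a gene, divided by the square root of 2, was 0.28 under 300, 0.20 between 300 and 1000, 0.17 between 1000 and 3000 and 0.11 at 3000 and over. For this error, a gene was placed in a band by the mean signal of the dimmer of its 2 sets, so a dim band can hold brighter sets. With each gene placed by the mean signal of its chosen set, the log2 ratios of genes read on both arrays had an SD of 0.35, 0.24, 0.19 and 0.15. The 2 kinds of SD therefore do not cover the same genes within a band. Over the 930 genes with 2 sets read, the error SD was 0.24 and the SD of the brighter set's log2 ratios was 0.24 as well, and the sets had the same sign for 522 (56.1%). Neither measure holds any variation between mice or pools.

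**Figure D2:**
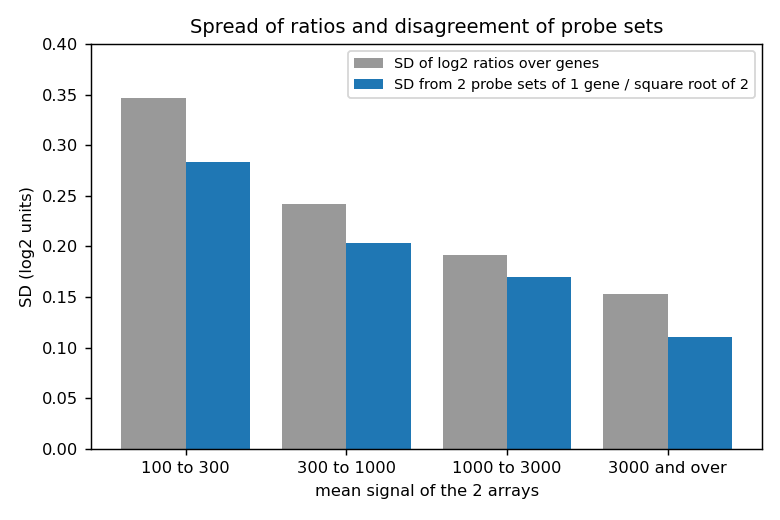
SD in log2 units (vertical axis, from 0) in 4 bands of mean signal; grey bars are the SD of the log2 ratios over genes read at 100 or more on both arrays, and blue bars are the SD of the difference between 2 probe sets of 1 gene divided by the square root of 2. Both fall from the dimmest band (0.35 and 0.28) to the brightest (0.15 and 0.11), and the blue bar is the lower of the pair in every band. Blue bars are banded by the dimmer of the 2 sets and grey bars by the chosen set of a gene, so the bars of a band do not cover the same genes.

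Glucocorticoid-induced genes were looked at first, because their inducer is what adrenalectomy removes. Of 40 genes listed, 34 could be compared, and 24 of them were below the intact level and 10 above it, with a median log2 ratio of -0.07 against 0.01 over all genes. A single member passed 1.5-fold in each direction, a share near that of all genes (2.67% higher, 2.24% lower). Fkbp5, which encodes the FKBP51 co-chaperone that lowers the affinity of the receptor for its hormone, read 1349 (intact), 796 (adrenalectomized), 3771 (3 h) and 1418 (24 h). Its log2 ratio of -0.76 is over 4 times the error SD of its band, and the adrenalectomized array was the lowest of the 4. Cebpd, which encodes the transcription factor C/EBP delta, went the other way and read 813 in intact and 1314 in adrenalectomized muscle, with 5503 at 3 h and 739.5 at 24 h. It was therefore 1.61-fold higher after adrenalectomy, although the 3 h array, with the hormone given back, was by far the brightest.

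Other known targets differed by less than 1.5-fold. Mt1 (metallothionein 1, a metal-binding protein) read 568 (intact), 441 (adrenalectomized), 1529 (3 h) and 313 (24 h). Gadd45g, a growth arrest gene, read 816 in intact and 580.3 in adrenalectomized muscle, with 2146 at 3 h and 635 at 24 h. Both were lower after adrenalectomy, with log2 ratios of -0.36 and -0.49. Nfkbia, the inhibitor of NF-kB that glucocorticoids raise, had a log2 ratio of -0.36, and Mstn (myostatin, the brake on muscle growth) one of -0.24. Some targets were close to the intact level. Sgk1, a kinase induced by glucocorticoids and mineralocorticoids, read 4508 (intact), 4396 (adrenalectomized), 6803 (3 h) and 4064 (24 h), a log2 ratio of -0.04. Klf9 (a Krüppel-like repressor) and the transcription factor gene Zbtb16 had -0.03 and -0.02, with second sets at 0.20 and 0.36. Tsc22d3, which encodes the glucocorticoid-induced leucine zipper protein, read 177 in intact and 256 in adrenalectomized muscle, with 155 at 3 h and 232 at 24 h, so its level was higher on the adrenalectomized array, by 0.53 on the log2 scale at signals where the error SD is 0.28. Across the 4 arrays, the 3 h array was the highest for 24 of the 34 genes, against 21.0% of all genes. The lowest was the adrenalectomized array for 13 (20.8% of all genes) and the 24 h array for 14 (26.4%). This list, too, was chosen with earlier results known.

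The classical site of the glucocorticoid receptor is an inverted repeat of AGAACA with 3 bases between its arms, searched here as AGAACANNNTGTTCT, which reads the same on both strands. In the RefSeq promoter windows (GRCm38.p6, 250 bases before to 50 bases after a gene's start) it was found in 3 of 32851 windows (0.00913%), and in 1 of the 48 windows (2.08%) of 35 glucocorticoid-induced genes. The arm alone, AGAACA on either strand, was in 19% of all windows and in 8 of those 48 (16.7%). The window with the whole repeat is 1 of the 6 windows of Sgk1, and the others of that gene lack it. It is at chr10:21993640-21993939 on the plus strand, shown because Sgk1 is a target whose level differed little between intact and adrenalectomized muscle. Its repeat is in capitals, at chr10:21993701-21993715.
Sgk1: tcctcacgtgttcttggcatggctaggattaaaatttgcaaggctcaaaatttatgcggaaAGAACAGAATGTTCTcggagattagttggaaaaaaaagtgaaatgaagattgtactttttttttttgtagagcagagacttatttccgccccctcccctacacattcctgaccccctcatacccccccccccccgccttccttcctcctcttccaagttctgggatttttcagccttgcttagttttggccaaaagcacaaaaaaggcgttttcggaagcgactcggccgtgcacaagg
A match is a description of these letters and no sign of binding, and the other windows were searched only within their 300 bases.

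The machinery that reads the hormone differed little. The list of the glucocorticoid receptor and chaperones also holds cofactors, the enzyme gene Hsd17b4 and the other hormone receptor genes Esr1, Thra and Thrb. Of its 20 genes compared, 11 were above and 9 below the intact level, with a median of 0.00. Nr3c1, the receptor itself, read 275 (intact), 311 (adrenalectomized), 197 (3 h) and 260.2 (24 h). Hsd11b1, the enzyme that regenerates active glucocorticoid inside cells, read 326 in intact and 383 in adrenalectomized muscle, with 295 at 3 h and 349 at 24 h. The log2 ratios were 0.18 and 0.23, where the error SDs are 0.28 and 0.20. Fkbp4 and Hsp90aa1, a co-chaperone and the heat shock protein of the receptor complex, had -0.13 and 0.00. Esr1, the estrogen receptor alpha, was the only member past 1.5-fold, at 84.2 and 183 on 1 dim probe set (at least 1.83-fold higher), and its other 3 sets read below 100 on both arrays.

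**Figure D3:**
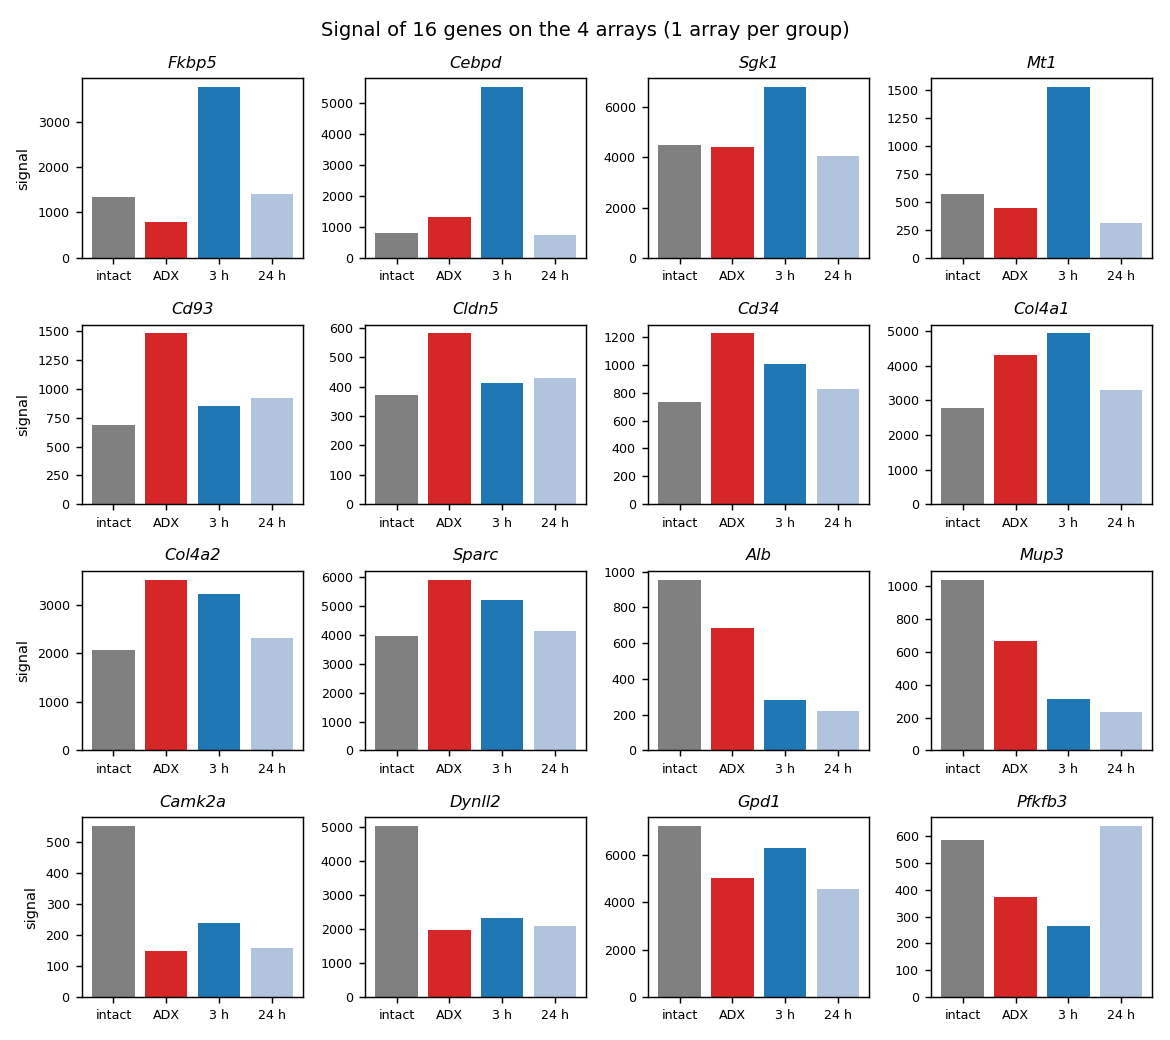
Signal (vertical axes, linear, each from 0) of 16 genes on the intact, adrenalectomized (ADX), 3 h and 24 h arrays, 1 array per bar and no error bar because each group is a single pool. Fkbp5 is lowest and Cd93 highest on the adrenalectomized array, Alb and Mup3 step down from intact to 24 h, and Dynll2 is high on the intact array alone.

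Genes of the endothelium, the inner layer of vessels, mostly stood above the intact level. Of 20 endothelial markers compared, 16 were above it and 4 below, with a median log2 ratio of 0.25, and 4 were past 1.5-fold, all higher, beside 2.67% of all genes. The sum of their signals was 13914 on the intact and 15791 on the adrenalectomized array, with 17547 at 3 h and 15341 at 24 h. Cd34, a sialomucin of capillary endothelium and progenitor cells, read 731 (intact), 1227 (adrenalectomized), 1005 (3 h) and 829 (24 h). Its second probe set was higher too, with a log2 ratio of 0.43 beside 0.75. Cldn5, the tight junction claudin of endothelium, read 372 in intact and 582 in adrenalectomized muscle, with 413 at 3 h and 431 at 24 h. Nos3, the endothelial nitric oxide synthase, read 147 (intact), 239 (adrenalectomized), 233 (3 h) and 151 (24 h). For these 3 genes the intact array was the lowest of the 4 and the adrenalectomized array the highest. Sox17, an endothelial transcription factor, read 407 in intact and 614 in adrenalectomized muscle, with 1056 at 3 h and 554 at 24 h, but its second, dimmer probe set went down (-0.28), so its direction is uncertain.

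Cd93, a receptor of endothelial and myeloid cells that is not on that list, was the brightest gene past 2-fold in the higher direction. It read 689.9 (intact), 1484 (adrenalectomized), 855 (3 h) and 924 (24 h), a 2.15-fold difference or 1.11 on the log2 scale, where the error SD for such signals is 0.17. The other 3 arrays, the intact one and both cortisol arrays, lay between 689.9 and 924, so the adrenalectomized array stood apart. Pecam1, the junction molecule PECAM-1, went the same way with 357 in intact and 520.2 in adrenalectomized muscle, with 374 at 3 h and 464 at 24 h (log2 ratio 0.54), and Kdr, the main receptor for VEGF, had a log2 ratio of 0.35. Not all endothelial genes did: Vwf (von Willebrand factor) read 654 and 651, Eng (endoglin) 1339 and 1352, and Aqp1, the water channel of capillaries, 3154 and 2847. The intact array was the lowest of the 4 for 11 of the 20 markers, beside 23.8% of all genes. Smooth muscle and pericyte genes, the outer cells of the same vessels, were evenly split, 7 above and 7 below with a median of 0.01, from Acta2 (smooth muscle actin) at -0.33 to Mcam at 0.41.

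The genes of blood pressure control that could be read were mostly above the intact level, 10 of 13, with a median of 0.11. Nos3 is one of them, and Nppa, which encodes atrial natriuretic peptide, read 258 (intact), 399.7 (adrenalectomized), 225 (3 h) and 307 (24 h). Agt, the angiotensinogen from which angiotensin is cut, was the member past 1.5-fold in the other direction, at 284 in intact and 169 in adrenalectomized muscle, with 235 at 3 h and 84.8 at 24 h, 1.68-fold lower after adrenalectomy. Ramp1 and Npr3, parts of the receptors for vasodilator peptides, were below the intact level by less (-0.12 and -0.17). Ace, the converting enzyme on endothelium, had a log2 ratio of 0.19, and Adm (the vasodilator adrenomedullin) one of 0.43. Agt stands on the list of adipocyte markers as well.

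Sheets of basement membrane surround each capillary and each fibre, and collagen IV is their main network. Of 21 genes compared, 13 were above and 8 below the intact level, with a median of 0.08. The 2 genes past 1.5-fold, both higher, were collagen IV chains, beside 2.67% of all genes. Col4a1 read 2769 (intact), 4298 (adrenalectomized), 4939 (3 h) and 3286 (24 h). Col4a2 read 2077 in intact and 3516 in adrenalectomized muscle, with 3211 at 3 h and 2317 at 24 h. The intact array was the lowest of the 4 for both chains, and the differences of 0.63 and 0.76 on the log2 scale compare with error SDs of 0.11 and 0.17. Col15a1, the collagen of the outer basement membrane, was higher by 0.54 (signals 1063 and 1548), and so were Hspg2 (perlecan) and Nid1 (nidogen 1), by 0.40 and 0.49. Laminin chains were split: Lama2, the laminin alpha 2 chain of the fibre surface, had -0.11 and Lamb2 -0.24, while Lamb1 had 0.26 and Lamc1 0.10. Col18a1 had -0.48.

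The 2 collagen IV genes lie head to head, so their RefSeq promoter windows overlap, and they are shown because both of these neighbours were higher. In GRCm38.p6 the window of Col4a1 is chr8:11312777-11313076 on the minus strand, and that of Col4a2 is chr8:11312555-11312854 on the plus strand. They share 78 bases, chr8:11312777-11312854, in capitals below, each written 5′ to 3′ on its own gene's strand.
Col4a1: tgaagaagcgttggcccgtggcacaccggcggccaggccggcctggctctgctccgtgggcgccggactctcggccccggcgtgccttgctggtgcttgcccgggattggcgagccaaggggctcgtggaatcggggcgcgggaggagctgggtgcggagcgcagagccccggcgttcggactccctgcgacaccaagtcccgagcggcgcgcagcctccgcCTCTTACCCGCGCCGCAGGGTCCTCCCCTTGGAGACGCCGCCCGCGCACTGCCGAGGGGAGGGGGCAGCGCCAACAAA
Col4a2: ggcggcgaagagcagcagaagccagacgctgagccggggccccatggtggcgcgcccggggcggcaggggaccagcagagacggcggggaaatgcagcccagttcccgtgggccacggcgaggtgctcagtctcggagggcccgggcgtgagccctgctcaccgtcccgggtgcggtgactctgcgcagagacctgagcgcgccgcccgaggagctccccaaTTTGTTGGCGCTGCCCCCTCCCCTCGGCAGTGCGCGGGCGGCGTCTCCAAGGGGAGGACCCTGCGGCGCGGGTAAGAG

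The fibrillar collagens and the genes that cross-link and remodel them tended the same way by smaller amounts. Of 38 genes, 27 were above the intact level and 11 below, with a median log2 ratio of 0.11. The adrenalectomized array was the highest of the 4 for 23 of them, beside 24.6% of all genes. Sparc (osteonectin, which binds collagen outside the cell) read 3965 (intact), 5915 (adrenalectomized), 5215 (3 h) and 4141 (24 h), a log2 ratio of 0.58 at signals where the error SD is 0.11. Serpinh1, the chaperone of procollagen, read 1627 in intact and 2167 in adrenalectomized muscle, with 1809 at 3 h and 1671 at 24 h. Col1a1 and Col1a2, the chains of collagen I, were higher by 0.31 and 0.33, though the second probe sets of the pair gave 0.13 and 0.00. Col3a1 had 0.19, and Dcn (decorin, which binds collagen fibrils) 0.09.

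Of the list's members 1 passed 1.5-fold in each direction, a share near that of all genes (2.67% higher, 2.24% lower). Lox, the lysyl oxidase that cross-links collagen, read 247 (intact), 378 (adrenalectomized), 319 (3 h) and 207 (24 h), with a second probe set that went down (-0.30). Tnxb, which encodes tenascin X, read 1680.3 in intact and 1001 in adrenalectomized muscle, with 866 at 3 h and 980.4 at 24 h, so the intact array was the highest of the 4, and its second set gave -0.22. Matrix proteases and their inhibitors were close to the intact level, with Timp2 at 0.06, Timp3 at -0.01 and Mmp14 at -0.14. The medians of the endothelial, basement membrane and fibrillar lists stayed above 0 under all 4 scalings, at 0.19 to 0.22, 0.03 to 0.08 and 0.05 to 0.12.

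**Figure D4:**
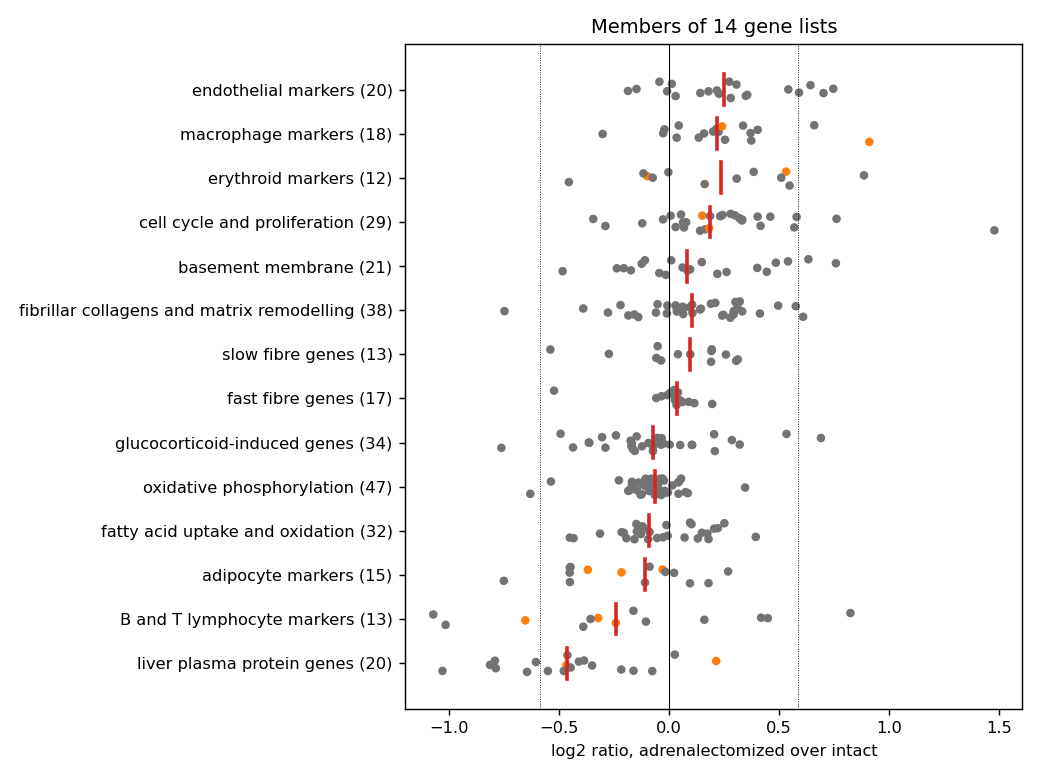
Log2 ratio of the adrenalectomized over the intact array (horizontal axis) for the members of 14 gene lists, with the number compared in parentheses; each point is a gene, orange points have 1 signal below 100 and are bounds, red bars are medians and dotted lines mark 1.5-fold. The endothelial and macrophage lists lie mostly to the right (medians 0.25 and 0.22), the liver list to the left (median -0.46), and the fast fibre genes crowd around 0 (median 0.03).

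The scaling decides the sign of small list medians. It turned for the lists of the glucocorticoid receptor and chaperones, adrenergic signalling, atrophy, proteasome, glucose, fast fibre, calcium, insulin, neutrophil, smooth muscle and gastrocnemius genes under at least 1 of the 4 scalings, so no direction is read from these medians. The medians of the endothelial, macrophage, cell cycle, lymphocyte and liver lists kept their sign, the last of them at -0.51 to -0.49.

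Genes of dividing cells were above the intact level as well, 25 of 29 with a median of 0.19, most of them dim. Stmn1 (stathmin, a microtubule destabiliser of dividing cells) read 157 (intact), 437 (adrenalectomized), 617 (3 h) and 254 (24 h), 2.79-fold higher after adrenalectomy, and its second probe set read below 100 on both arrays. Mki67, the Ki-67 proliferation marker, read 118 in intact and 201 in adrenalectomized muscle, with 209 at 3 h and 157 at 24 h. Ccna2 and Ccnb2, cyclins of the S and G2 phases, had log2 ratios of 0.58 and 0.57, and Ccnd1 (cyclin D1) had 0.46 on its brighter and -0.42 on its dimmer set, so its direction is uncertain. The replication helicase subunits Mcm3, Mcm5 and Mcm7 had 0.42, 0.33 and 0.40. The list also holds brakes on division, and these were split, with Cdkn1a (p21) at -0.29, Rb1 at -0.34 and Cdkn1c (p57) at 0.14. The intact array was the lowest of the 4 for 14 of the 29 genes, beside 23.8% of all genes.

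Immune cell markers differed by type. Of 18 macrophage markers, 15 were above the intact level, with a median of 0.22, and their summed signal was 8868 on the intact, 10181 on the adrenalectomized, 8624 on the 3 h and 9915 on the 24 h array. Tyrobp, the signalling adaptor DAP12, read 149 (intact), 236 (adrenalectomized), 147 (3 h) and 213 (24 h). Ccr2, the receptor that draws monocytes into tissue, read 88.5 in intact and 188 in adrenalectomized muscle, with 120.3 at 3 h and 135 at 24 h, at least 1.88-fold higher after adrenalectomy. The brighter members differed less, with Lyz2 (lysozyme) at 0.26, Mrc1 (the mannose receptor) at 0.37, Csf1r at 0.14 and Cd68 at -0.02. Adgre1, which encodes the F4/80 antigen, was lower at -0.30.

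B and T lymphocyte markers were lower on balance, 9 of 13 with a median of -0.24. Cd4, the co-receptor of helper T cells, read 268 (intact), 127 (adrenalectomized), 243 (3 h) and 337 (24 h). Cd79a, part of the B cell receptor, read 262 in intact and 129.6 in adrenalectomized muscle, with 246 at 3 h and 528 at 24 h. Both are past 2-fold, beside 0.376% of all genes that were lower by as much. The list is dim, with a median mean signal of 195.8, and 10.1% of all genes under 300 passed 1.5-fold. Jchain read 157 in intact and 81.35 in adrenalectomized muscle, at least 1.57-fold lower. The adrenalectomized array was the lowest of the 4 for 7 of the 13 markers (20.8% of all genes), and the 24 h array was the highest for 10 (31.0% of all genes). Igkv6-23, an immunoglobulin light chain segment, had the largest bound of all genes and read 411 (intact), 69.7 (adrenalectomized), 468 (3 h) and 1332 (24 h). Ms4a1, which encodes CD20 of B cells, read 284 in intact and 388 in adrenalectomized muscle, with 277 at 3 h and 359.5 at 24 h, but its second set was lower (-0.68), so its direction rests on the set chosen. Rag1, the recombinase of immature lymphocytes, read 184 (intact), 326 (adrenalectomized), 287 (3 h) and 334 (24 h), and its second set read below 100 on both arrays. The brightest marker, Ighm (the heavy chain of IgM), read 2366 in intact and 1848 in adrenalectomized muscle, with 2399.6 at 3 h and 2633 at 24 h. The summed signal of the list was 4990.1 on the intact and 4271 on the adrenalectomized array. Of 10 neutrophil and mast cell markers none passed 1.5-fold, and the median was 0.03, with Camp (cathelicidin) at 0.57 and Tpsb2 (mast cell tryptase) at 0.56.

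Of 12 markers of red cells, 7 were above the intact level (52.0% of all genes were), with a median of 0.24. Alas2, the first enzyme of haem synthesis in red cell precursors, read 122 (intact), 225 (adrenalectomized), 198 (3 h) and 187 (24 h). Hba-a1, an alpha globin gene, read 5246 in intact and 6496 in adrenalectomized muscle, with 6956 at 3 h and 6115 at 24 h. Hbb-b2, a beta globin gene, had 1193 and 1745, so the globin log2 ratios were 0.31 and 0.55. The red cell transcription factors Gata1 and Klf1 went the other way, at -0.46 and -0.10. So did Bpgm and Tfrc, at -0.07 and -0.12, while Rhag was at 0.00. The summed signal of the list was 12431 and 14203. Its part in the higher signal of vessel genes was not tested.

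Transcripts that the liver makes for the blood plasma were mostly lower after adrenalectomy. Of 20 compared, 18 were below the intact level, with a median log2 ratio of -0.46, and 6 were past 1.5-fold, all lower, beside 2.24% of all genes (Kng1, Ttr, Plg, Hpx, Mup3 and Apoa2). The intact array was the highest of the 4 for 16 of the 20, beside 23.4% of all genes. Alb (albumin) read 956 (intact), 686 (adrenalectomized), 282 (3 h) and 218 (24 h). Mup3, a major urinary protein, read 1041 in intact and 666 in adrenalectomized muscle, with 315 at 3 h and 236 at 24 h. Both stepped down from the intact array to the 24 h array, and the second probe set of Mup3 went down further (-1.21). Kng1 (kininogen) read 259 (intact), 127 (adrenalectomized), 48.2 (3 h) and 286 (24 h). Ttr (transthyretin) had 195 and 111, and Hpx (haemopexin) 176 and 102. Of the list's 29 genes on the array, 9 read below 100 in both pools. The list also holds Cyp2e1, a liver enzyme and no plasma protein, at 1601 and 1519. Serpina1b, Serpina1c, Serpina1e, Mup3 and Mup5 were read on sets whose suffix (_f_at) marks probes shared between transcripts. The counts and sums of the list can therefore hold the same signal more than once. The summed signal of the list was 11326 in intact and 8554 in adrenalectomized muscle, 6364 at 3 h and 5929 at 24 h. Where these transcripts came from, and their part in other results, was not tested.

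The complement and fat cell lists share genes with it. Of 20 complement and acute phase genes, 11 were lower and 9 higher, with a median of -0.11. Hp (haptoglobin) and Hpx are also plasma proteins, lower by 1.46-fold and 1.73-fold, so only Hpx of these was past 1.5-fold. Saa3 (serum amyloid A3) was the member past 1.5-fold in the other direction, at 109 and 181. C1qa and C1qc, complement parts that macrophages make, had 0.04 and 0.37. Of 15 adipocyte markers, 11 were below the intact level, with a median of -0.11 and a summed signal of 34986 against 34438. Adipoq (adiponectin) read 1802 in intact and 1319 in adrenalectomized muscle, with 1171 at 3 h and 1156 at 24 h. Retn (resistin) read 525 (intact), 384 (adrenalectomized), 324 (3 h) and 303 (24 h). Lipe, the hormone-sensitive lipase of fat cells, had a log2 ratio of -0.45, but Fabp4, the fatty acid binding protein of fat and capillaries, had 0.18 and Lep (leptin) 0.02.

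Fuel genes of the muscle fibre showed small differences. Of 33 genes of glucose transport, glycogen and glycolysis, 17 were above and 16 below the intact level, with a median of 0.01. Pfkfb3, which makes the activator of phosphofructokinase, read 585 in intact and 374 in adrenalectomized muscle, with 267 at 3 h and 639 at 24 h, but its dimmer second set went up (0.47). Gpd1, the glycerol 3-phosphate dehydrogenase of fast fibres, read 7228 (intact), 5032 (adrenalectomized), 6298 (3 h) and 4558 (24 h), 1.44-fold lower after adrenalectomy, and its second set agreed (-0.59). Slc2a1, the glucose transporter GLUT1 of vessels and many other cells, read 119 in intact and 208 in adrenalectomized muscle, with 159 at 3 h and 97.8 at 24 h. Slc2a3 (GLUT3) read 87 and 183, at least 1.83-fold higher, on the set that is brightest over the 4 arrays. Its other set is the brighter one on these 2 arrays and went the other way (212 and 179.7, -0.24), so its direction rests on the set chosen. The transporter of the fibre, Slc2a4 (GLUT4), had a log2 ratio of -0.15. Pygm (muscle glycogen phosphorylase), Pfkm and Ldha were at 0.05, 0.03 and 0.06.

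Mitochondrial genes lay slightly but widely below the intact level. Of 47 oxidative phosphorylation genes, 39 had a log2 ratio below 0 and 8 above it, with a median of -0.06, and the intact array was the highest of the 4 for 24, beside 23.4% of all genes. Under the 4 scalings the median stayed between -0.12 and -0.04. These are bright genes, and all genes with a mean signal of 3000 or more had a median of -0.04 as well. Among the subunits, Ndufs1 of complex I had -0.17, Uqcrc1 of complex III -0.08, Cox7a2 of complex IV -0.11 and Atp5a1 of the ATP synthase -0.04. Atp5g1 was the member past 1.5-fold, at 233 and 150.5 on a dim set, where its second set gave -0.07. Tricarboxylic acid cycle genes were below the intact level for 11 of 16 (median -0.06), with citrate synthase (Cs) at 0.08 and isocitrate dehydrogenase 3 alpha (Idh3a) at -0.14.

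Genes of fatty acid uptake and oxidation were lower for 21 of 32, with a median of -0.09, and none passed 1.5-fold. Of all genes with a mean signal between 1000 and 3000, 1.67% did. Acadm, the medium-chain acyl-CoA dehydrogenase, read 8648 (intact), 7920.4 (adrenalectomized), 6418 (3 h) and 7254 (24 h). Cpt2, of the carnitine shuttle, read 2819 in intact and 2445 in adrenalectomized muscle, with 2306 at 3 h and 2197 at 24 h. Pdk4, the kinase that shuts off pyruvate dehydrogenase and a known glucocorticoid target, read 6455 (intact), 7443 (adrenalectomized), 9322 (3 h) and 2425 (24 h), higher by 0.21 on the log2 scale after adrenalectomy. Cpt1a, the non-muscle form of the first carnitine step, had the largest positive value, 0.40. Of 18 genes of cholesterol and fatty acid synthesis 12 were lower (median -0.08), and Sqle (squalene epoxidase) was the member past 1.5-fold, at 174 and 115. Fasn, the fatty acid synthase, had -0.46.

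Nitrogen metabolism gave few differences. Among 27 genes of amino acid metabolism and transport none passed 1.5-fold and the median was -0.01. Glul, the glutamine synthetase that glucocorticoids raise in muscle, had -0.12, with a second set at 0.14. Of 7 polyamine genes, Dhps alone passed 1.5-fold (112 and 176), while Odc1, the rate-limiting ornithine decarboxylase, had a log2 ratio of -0.38 with signals of 1102 and 848. The median of that small list was -0.22. Proteolysis genes stayed near the intact level: of 27 atrophy and autophagy genes none passed 1.5-fold (median 0.01), with Ctsl (cathepsin L) at 0.01, Foxo3 at -0.05 and Map1lc3a at -0.19, and of 29 proteasome subunits none did either (median -0.01). Only 1.67% of all genes with a mean signal between 1000 and 3000 passed it. The muscle ubiquitin ligase genes Fbxo32 and Trim63 are not among the 27 atrophy and autophagy genes, so nothing is said of them here.

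The fibre type genes are mostly bright and differed by small amounts. Of 17 fast fibre genes none passed 1.5-fold, beside 0.907% of all genes with a mean signal of 3000 or more. Their median was 0.03, from Gpd1 at -0.52 to Tnni2 (fast troponin I) at 0.20. A dim second set of Myh4 read 244 in intact and 76.7 in adrenalectomized muscle, lower by at least 1.28 on the log2 scale. Of 13 slow fibre genes 8 were above the intact level, with a median of 0.10, and again none passed 1.5-fold. Tnni1, the slow troponin I, read 5659 in intact and 7031 in adrenalectomized muscle, with 1768 at 3 h and 1802 at 24 h. Tnnc1, the slow troponin C, read 3938 (intact), 4868 (adrenalectomized), 1296 (3 h) and 1011 (24 h). Their log2 ratios of 0.31 and 0.31 compare with an error SD of 0.11, and for both genes the 3 h and 24 h arrays lay far below the intact and adrenalectomized ones. Myh7, the slow myosin heavy chain, had 0.19, and Csrp3 (muscle LIM protein) -0.27. The adrenalectomized array was the highest of the 4 for the same 8 slow genes, and for each of them both cortisol arrays lay far below the other arrays. Being highest therefore only repeats being above the intact level, and the share of all genes (24.6%) is no measure for it. The median of the list stayed above 0 under the 4 scalings, at 0.04 to 0.12.

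Among genes of calcium handling and calmodulin kinases the median was 0.00 (14 above, 14 below), and 1 member stood far from the others. Camk2a, the alpha subunit of calmodulin kinase II, read 552 in intact and 149.6 in adrenalectomized muscle, with 239 at 3 h and 157 at 24 h. It was 3.69-fold lower after adrenalectomy, and the second probe set was 1.95-fold lower, reading 324 and 166. All 3 arrays of adrenalectomized mice lay between 149.6 and 239, so the intact array was the one that stood apart. The beta subunit, Camk2b, read 2063 and 2041, and the calcium pumps Atp2a1 and Atp2a2 of fast and slow fibres had log2 ratios of 0.04 and 0.19.

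Ion transport, which aldosterone governs in the kidney, was looked at for the loss of that hormone. Of 23 genes of sodium, potassium and chloride transport, 11 were above and 12 below, with a median of -0.02. Clcn1, the muscle chloride channel, read 3049 (intact), 1869.5 (adrenalectomized), 2248 (3 h) and 2474 (24 h), and a dim second set read below 100 on both arrays. Car14, a carbonic anhydrase of the fibre membrane, read 1109 in intact and 734 in adrenalectomized muscle, with 881 at 3 h and 980.2 at 24 h. Both were past 1.5-fold and lower. Atp1b2, a beta subunit of the sodium pump, read 976 (intact), 1422 (adrenalectomized), 1196 (3 h) and 1391 (24 h), and the other beta subunits, Atp1b1 and Atp1b3, had -0.02 and 0.10. Nedd4l, the ubiquitin ligase of the sodium channel that Sgk1 acts on, had 0.18, and Fxyd1 (phospholemman) -0.05.

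The loss of adrenaline has its own readers. Of 25 genes of adrenergic and cyclic AMP signalling none passed 1.5-fold, 13 were above and 12 below the intact level, and the median was 0.01. The protein kinase A subunits Prkaca and Prkar1a had -0.10 and -0.04, the phosphodiesterase Pde4b had 0.34 at 600.2 and 759, and the adenylate cyclases Adcy9 and Adcy6 had -0.27 and 0.26. Nr4a1, an orphan receptor that beta-adrenergic signals induce in muscle, read 2022 in intact and 1785 in adrenalectomized muscle, with 3628 at 3 h and 2067 at 24 h. Immediate early genes as a whole were 13 below and 10 above (median -0.07), but relative to all genes their median turned from -0.08 to 0.044 with plain probe sets, so no direction is read from it. Jun, a subunit of AP-1, was past 1.5-fold at 444 (intact), 294 (adrenalectomized), 363 (3 h) and 321 (24 h). Fos and Junb were not lower, with 0.19 and 0.40.

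Growth signals differed little as well. Of 35 insulin and IGF genes, 17 were above and 18 below (median -0.01), and Eif4e, the cap-binding translation factor, was the member past 1.5-fold at 121 and 183. Igf1, an insulin-like growth factor, read 1057 in intact and 1473 in adrenalectomized muscle, with 1125 at 3 h and 1301 at 24 h, a log2 ratio of 0.48 with 0.19 on the second set. Irs1 and Irs2 had 0.27 and -0.05, and Akt1 and Akt2 0.29 and -0.08. Among 21 myogenic and satellite cell genes the median was -0.01, with Myod1 at -0.18, Myf6 at -0.34 and Dll1, a Notch ligand, past 1.5-fold at 128 and 216.

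At the neuromuscular junction the acetylcholine receptor subunits went in different directions. Chrna1, the alpha subunit, read 191 (intact), 303 (adrenalectomized), 209 (3 h) and 162 (24 h), higher by 0.67 on the log2 scale. Chrng, the fetal gamma subunit, read 194 in intact and 64.6 in adrenalectomized muscle, with 230.5 at 3 h and 84.8 at 24 h, at least 1.94-fold lower. Chrne, the adult epsilon subunit, read 454 and 298 on its brightest set, but of its other sets 1 gave -0.50 and the other 0.06, so its direction rests on the set chosen. Over the 14 genes of the list the median was 0.07, with Ache (acetylcholinesterase) at -0.08 and Rapsn at -0.15. Chrna7, the alpha 7 subunit that is not on the list, read 179.6 (intact), 461 (adrenalectomized), 258 (3 h) and 285 (24 h).

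Among genes with a mean signal of 1000 or more, Dynll2 had the largest difference. Dynll2, a light chain of dynein and myosin V, read 5031 in intact and 1961 in adrenalectomized muscle, with 2332 at 3 h and 2094 at 24 h, so all 3 arrays of adrenalectomized mice lay far below the intact array, the uninjected one by 2.56-fold. A second Dynll2 probe set read 1192 and 1128 and did not share the difference, so the gene's level is uncertain. Gpcpd1, a glycerophosphocholine phosphodiesterase, read 2295 (intact), 1191 (adrenalectomized), 2627 (3 h) and 2692 (24 h), and there the adrenalectomized array alone was low. Smyd1, a muscle methyltransferase needed for sarcomere assembly, read 6447 in intact and 4038 in adrenalectomized muscle, with 3278 at 3 h and 3976 at 24 h, but its dim second set went up (0.30). Mark2, a microtubule kinase, read 1917 (intact), 1296 (adrenalectomized), 1577 (3 h) and 1755 (24 h), and all 3 of its sets were lower. Arl2bp, Nbr1 (an autophagy receptor) and Pdgfa (a platelet-derived growth factor chain) had log2 ratios of -0.71, -0.60 and -0.59. Of these, Arl2bp read 2581 in intact and 1574 in adrenalectomized muscle, with 2244 at 3 h and 2281 at 24 h.

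The bright genes in the higher direction were led by Cd93 and Myl12b. Myl12b, a regulatory light chain of non-muscle myosin, read 1022 (intact), 1979 (adrenalectomized), 1557 (3 h) and 1197 (24 h), and the intact array was the lowest of the 4. Limk1, a kinase that acts on the actin filament regulator cofilin, read 1301 in intact and 2039.8 in adrenalectomized muscle, with 2052 at 3 h and 1492 at 24 h. Tmem38b, an ion channel of the endoplasmic reticulum, read 1610.4 (intact), 2511 (adrenalectomized), 2517 (3 h) and 2877 (24 h). Rflnb, which binds filamin, read 1058 in intact and 1634 in adrenalectomized muscle, with 1062 at 3 h and 1055 at 24 h, so the adrenalectomized array stood alone above 3 arrays that were within a few units of each other. Tbc1d10a, a regulator of Rab proteins, read 1031 (intact), 1853 (adrenalectomized), 824 (3 h) and 1208 (24 h), but its second set was below 100 on both arrays. Wbp1 had a log2 ratio of 0.63. The non-muscle actin Actb read 3286 in intact and 5026 in adrenalectomized muscle, with 4028 at 3 h and 3563 at 24 h, with its second set at 0.42 and the 3 control sets for actin at 0.09, 0.14 and 0.24. Tmsb10 and Tmsb4x, thymosins that hold actin monomers, had 0.58 and 0.49. The cytoskeleton list as a whole had 18 of 31 above the intact level and a median of 0.07. Dbnl, an actin-binding adaptor, read 331 (intact), 121 (adrenalectomized), 319 (3 h) and 306 (24 h), so the adrenalectomized array alone was low.

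Most other genes past 2-fold were dim on both arrays. Higher after adrenalectomy were Pmm1 (phosphomannomutase 1) with 101 and 284, Lef1, a Wnt pathway transcription factor, with 185 and 457, and Pdc (phosducin) with 112 and 299, where Lef1 and Pdc each have a second set below 100 on both arrays. In the same class were Mettl18, Pimreg, Larp7, Ccr6, Utp14a and Syne4, with log2 ratios between 1.12 and 1.28, and Larp7 had 2 more sets at 0.32 and 0.08. Lower were Tex2 at 382 and 112, Icmt (which methylates prenylated proteins) at 319 and 131, and Ada (adenosine deaminase) at 469.8 and 218, where a dimmer Ada set gave 0.14. Snrp1c-ps2, Psg19 and 2210016L21Rik had log2 ratios between -1.48 and -1.20.

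A bound in place of a ratio was all that could be given where 1 array read below 100. Trh, which encodes thyrotropin-releasing hormone, had the largest such bound in the higher direction, at 48.6 in intact and 248 in adrenalectomized muscle, with 38.9 at 3 h and 109 at 24 h (at least 2.48-fold). Lsm2, Degs2, Tgfb1, H2-DMb2 and Ercc4 followed, and Tgfb1, the growth factor TGF-beta 1, read 78.9 (intact), 227 (adrenalectomized), 91.8 (3 h) and 69.2 (24 h). In the lower direction, after Igkv6-23, came Otog, Hcrt (the hypothalamic peptide orexin), Grb7, Cntfr and Lrp5, and Cntfr, the receptor for ciliary neurotrophic factor, read 245 in intact and 34.3 in adrenalectomized muscle, with 133 at 3 h and 46.1 at 24 h. Peptide hormone genes gave ratios of both signs, mostly at dim signals, with a median mean signal of 175.3. Oxt (oxytocin) read 429.7 (intact), 129.8 (adrenalectomized), 125 (3 h) and 151 (24 h), and Pdyn (prodynorphin) was at 105 and 185. Over the 12 that could be compared the median was 0.09, with 7 above and 5 below the intact level.

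Agreement between probe sets marks the genes whose difference does not hang on a single set. Of 1084 genes with 2 or more sets read, 47 had their brightest set past 1.5-fold, and in 5 of these all sets were past 1.5-fold the same way. Alppl2, an alkaline phosphatase, was the one higher gene, at 137 and 212. The lower genes were Camk2a, Hpx, Mup3 and Reln, and Reln (reelin, a large glycoprotein of the extracellular matrix) read 281 in intact and 180.4 in adrenalectomized muscle, with 189 at 3 h and 184 at 24 h. The Mup genes are near-identical copies that share probes, so the Mup3 values can hold other members of the family.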

How the data were processed

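Total RNA of pooled gastrocnemius muscle was hybridised to MG-U74Av2 arrays, 1 array per group. The authors deposited linear signal intensities from the MAS 5.0 software, per the labels' descriptions. The deposited intensity values were already scaled near a trimmed mean of 500. They were set to a trimmed mean of 500 over the non-control probe sets (2.0% cut at each end), floored at 100 and divided (Python 3.11.15, pandas 2.3.3, numpy 2.4.6). A gene is its probe set with the highest mean over the 4 arrays. Symbols came from the platform annotation table, and 396 probe sets with several symbols and 1193 with none were left out. The scripts were tested on simulated data. With 1 array per group there is no test. Alternatives were 4 other scalings, floors of 50 and 200, a pseudocount of 50 without a floor, the mean of all sets of a gene, and plain _at sets only.

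Genes were named by rule: the 12 largest ratios each way with both signals at or above the floor, the 6 largest bounds each way, the 10 largest each way with a mean signal of 1000 or more, genes whose sets all passed 1.5-fold one way, list members past 1.5-fold, and up to 8 further members of a list by known role. The members and the 43 gene lists were chosen with earlier results of these data known.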

Additional observations from a re-analysis of the deposited data

Results flagged for a closer look

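Probe sets without a single gene symbol were outside the comparison, and some of them differed by 2-fold or more. Of 544 sets with no symbol that could be compared, 2 were higher and 4 lower after adrenalectomy (1.10%), and of 275 sets with several symbols, 1 was higher and 2 lower (1.09%), beside 0.720% of genes with a single symbol.

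The sets with the largest log2 ratios in each class, read above the floor on both arrays, were these. A set with no symbol read 128 in intact and 266 in adrenalectomized muscle, a log2 ratio of 1.05. A set with several symbols read 102 and 208, a log2 ratio of 1.02. In the lower direction, a set with no symbol read 317 and 124, a log2 ratio of -1.36, and a set with several symbols read 355 and 141, a log2 ratio of -1.33. All 4 are dim, 3 of them are sets whose suffix marks probes shared between transcripts or chosen under relaxed rules, and no replicate exists to check them.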

How the results depend on the processing

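The counts depend most on how dim signals are treated. At 2-fold, 21 genes were higher and 23 lower with a floor of 100, 101 and 92 with a floor of 50, 4 and 7 with a floor of 200, and 42 and 43 with a pseudocount of 50 in place of a floor. At 1.5-fold the counts were 368 and 332 with a floor of 50 and 57 and 55 with a floor of 200. These changes follow from the construction of the floor. The 4 other scalings, the mean of all probe sets and the plain sets kept each count within 1.5 times. Of the list medians taken relative to all genes, the complement list turned from -0.12 to 0.036 with a floor of 200 and was -0.22 with plain sets. The adipocyte list moved from -0.12 to -0.22 with a floor of 50 and to -0.21 with the pseudocount, the lymphocyte list from -0.25 to -0.14 with the mean of all sets, and the cell cycle list from 0.18 to 0.23 with a floor of 50. The immediate early list turned from -0.08 to 0.044 with plain sets and was -0.01 with the mean of all sets. The cause was not tested. Of 91 named genes, 90 kept their direction in every alternative that gave a value, and Chrne turned from -0.61 to 0.064 with plain sets only. The genes were picked for large ratios, so this is no support for their directions. For some of them, such as Sox17 and Lox, a second set went the other way. No paired analysis was possible because each group is 1 array. Signals under 300, where the error SD is 0.28, limit most ratios past 2-fold, and pools of 10 mice hide the spread between mice.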

Other observations

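Several further gene groups of the same comparison lay close to the intact level. Heat shock and stress proteins were below it for 21 of 34 genes (median log2 ratio -0.07), with Hspa1b at -0.22 and Cat (catalase, which breaks down hydrogen peroxide) at 0.44, while a second Cat set of similar signal went down (-0.19). Of 16 circadian clock genes 9 were above and 7 below (median 0.04), none past 1.5-fold, and the labels give no hour of dissection. Tef, a clock output factor, read 1726 (intact), 2558 (adrenalectomized), 1903 (3 h) and 1999.7 (24 h), and Arntl, which encodes BMAL1, read 553 in intact and 438 in adrenalectomized muscle, with 473 at 3 h and 385 at 24 h. Per1, a clock gene that glucocorticoids induce, had 0.29.

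Of 20 inflammatory mediators none passed 1.5-fold (median 0.05), with Il1r1 at -0.38 and Cxcl12 at 0.18. For the 28 genes of interferon response and antigen presentation the median was 0.03, and none passed 1.5-fold. The MHC class II genes Cd74, H2-Aa and H2-Ab1 had log2 ratios of 0.31, 0.30 and 0.34, and the class I genes H2-D1 and H2-K1 had -0.03 and -0.02 on their brightest sets and positive values on the others. Ribosomal proteins (19 genes, median 0.02), Schwann cell and nerve markers (10, median 0.04) and epidermis and hair follicle markers (23, median 0.02) had no member past 1.5-fold. For each of these 3 lists, and for the clock, inflammatory and interferon lists, the sign of the median turned under at least 1 of the 4 scalings.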
